A study of Mus musculus with 4 samples.

Results

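Translation initiation factors are the proteins that bring the initiator tRNA, the small ribosomal subunit and an mRNA together at a start codon. Their genes were read here in mouse BMDM, the usual name for macrophages that are raised in a dish from bone marrow cells, here of C57BL/6J mice. The members were the genes whose symbol begins with Eif1 to Eif6, leaving out the Eif2ak kinases, genes with no protein-coding transcript and Y-linked genes. This gave 50 members with 330 annotated transcripts, among 55536 Ensembl genes of which 21901 have a protein-coding transcript. Of the 62 genes with such a symbol, 11 had no protein-coding transcript and 1 was Y-linked.

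The study's 4 libraries form 1 group. The sample descriptions give a first exposure of 100 ng/mL Lipid A for 12 h, a washout of 12 h, and a second exposure of 100 ng/mL for 60 min. Lipid A, the membrane anchor of bacterial lipopolysaccharide, is a ligand of the receptor TLR4. The source names instead call the agent lipoprotein A and mention no washout, so the labels conflict. All libraries carry 1 donor identifier, and the labels number them as biological replicates 1 to 4. No untreated or once-treated cells were analysed here, so no level is a response to Lipid A, and p-values measure the spread between these libraries only. In bulk RNA, fewer cells of a type and less RNA per cell cannot be told apart.

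Initiation on most mRNAs begins when the cap is bound by eIF4E, which joins the scaffold eIF4G and the helicase eIF4A. The small subunit arrives with eIF1, eIF1A, eIF3, eIF5 and the complex of eIF2 with GTP and the initiator tRNA, and scans to a start codon. Cells adjust this process mainly by phosphorylating eIF2, which blocks its exchange factor eIF2B, and by the eIF4E-binding proteins, which compete with eIF4G for eIF4E and are released when mTORC1 phosphorylates them. In macrophages, signals from TLR4 act on both controls.

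Expected counts on genes ranged from 23167140 to 41453162 per library, and the members held 0.558%, 0.616%, 0.687% and 0.634% of them in replicates 1, 2, 3 and 4. Mitochondrial genes held 1.94% to 4.77% of TPM (a level per transcript length, scaled to the same sum in each library) and ribosomal RNA genes 1.29% to 7.14%. All 8 macrophage markers were at 1 TPM or more in each library, and their summed level ran between 16689 and 19742 TPM. Of 21 markers of other cell types, 2 reached 1 TPM in each library, the neutrophil genes S100a8 and S100a9. The summed level of the 21 ran from 13.1 to 124 TPM, while the neutrophil marker Ly6g was at 0 in all libraries. S100a9 had 71.4, 6.77, 61.7 and 5.10 TPM in replicates 1 to 4, and S100a8 was likewise higher in replicates 1 and 3. The part of these values in the results below was not tested.

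Initiation factor transcripts were abundant. Of the 50 members, 48 reached 1 TPM in each library, 43 reached 10 TPM and 8 reached 100 TPM. Among all genes, 10407 reached 1 TPM in each library. The 48 detected members had a median of 62.4 TPM, beside 17.2 TPM over all detected genes. At 100 TPM or more stood 16.7% of the detected members, beside 10.5% of the detected genes. The exceptions were Eif4ebp3, under 1 TPM in replicates 3 and 4, and Eif4e1b, listed at 0 in all libraries.

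**Figure D1:**
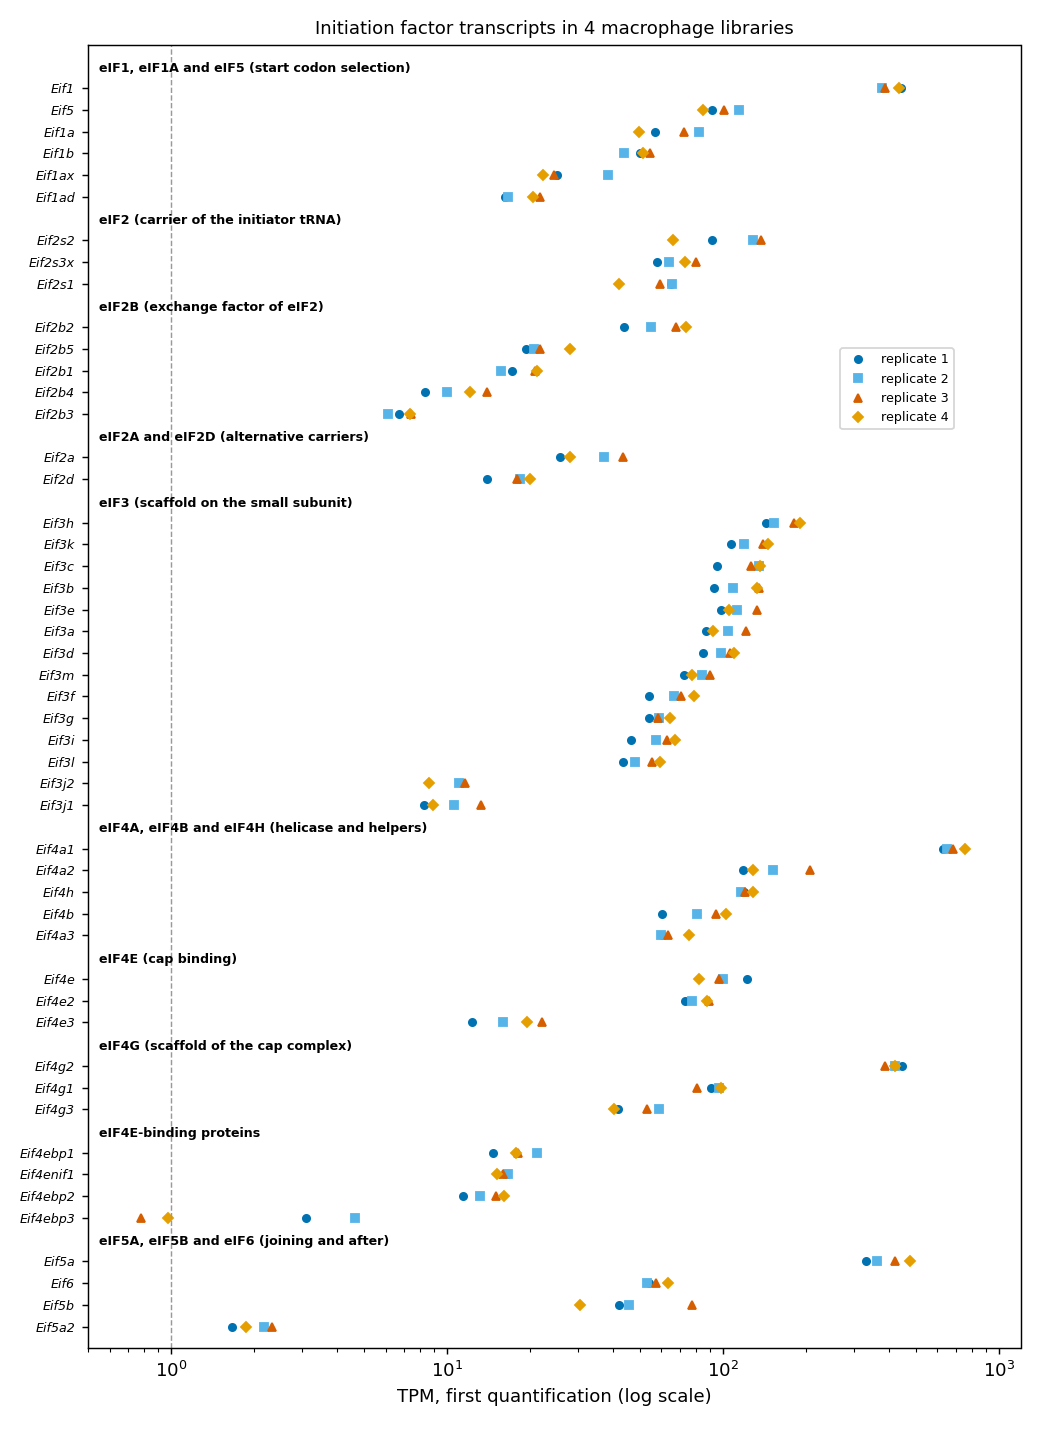
TPM of the 49 members listed above 0 (log scale), by role group, with 1 point for each of the 4 libraries. Eif4a1, Eif4g2, Eif1 and Eif5a stand at the right, and the dashed line marks 1 TPM. Eif4ebp3 is the member with points to the left of it.

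In the group that selects the start codon, Eif1, which guards the fidelity of that choice, was the highest. It had 441, 378, 389 and 436 TPM in replicates 1, 2, 3 and 4. Its paralog Eif1b had 49.9, 43.7, 54.5 and 51.5 TPM. The levels of this pair did not overlap, and the ratio of Eif1 over Eif1b was 3.04 ± 0.14 on the log2 scale (SD, n = 4), an 8.23-fold difference. All ratios here were taken per library as log2 of TPM + 0.1, and with 4 libraries the exact two-sided sign-flip permutation test cannot go below p = 0.125. Of the 19 ratios between paralogs or partners, 16 had the same sign in all 4 libraries, and each of those had p = 0.125 in the exact test (0.148 after Benjamini-Hochberg adjustment over the 19). No ratio could therefore pass 0.05 by that test.

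The other genes of this group were lower. Eif5, the GTPase-activating protein of eIF2, had 91.7, 115, 101 and 84.8 TPM. Eif1ad, which encodes a protein with an eIF1A domain, was the lowest with 16.3, 16.6, 21.7 and 20.6 TPM. All 6 genes of the group were detected, between 18.8 and 411 TPM on average.

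Of the 2 eIF1A genes, the autosomal copy was the higher. Autosomal Eif1a had 56.6, 82.0, 72.5 and 49.6 TPM in replicates 1 to 4. X-linked Eif1ax had 25.0, 38.3, 24.4 and 22.3 TPM. The ratio of Eif1ax over Eif1a was -1.25 ± 0.21 on the log2 scale (n = 4), and no library overlapped. Much of the Eif1ax level was assigned to Eif1ax-202, a 416-base transcript annotated as a retained intron, with 60.1%, 73.2%, 52.7% and 55.7% of the gene. By expected counts it had 44.55, 71.9, 57.7 and 45.9, against 874, 780, 1676 and 1197 for the coding Eif1ax-201. Over protein-coding transcripts alone, Eif1ax had 9.98, 10.3, 11.6 and 9.90 TPM, and the ratio over Eif1a was -2.61. Those coding levels lay closer together than the gene's levels, with replicate 2 no longer apart.

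For eIF2, which carries the initiator tRNA, the means of the 3 subunit genes lay within 1.83-fold of each other. Eif2s1 encodes the alpha subunit, whose phosphorylation slows initiation, and had 64.9, 65.6, 59.3 and 42.2 TPM. Eif2s2, for the beta subunit, had 91.2, 129, 138 and 66.0 TPM. Eif2s3x, for the GTP-binding gamma subunit, had 57.9, 64.1, 79.9 and 72.8 TPM. Eif2s2 was above Eif2s1 in all libraries, by 0.83 ± 0.33 on the log2 scale (n = 4). In the second quantification, described below, the ratio was 0.57 and below 0 in replicate 1, with 67.1 TPM for Eif2s2 against 72.8 TPM for Eif2s1. Eif2s3x over Eif2s1 was 0.25 ± 0.44, with the gamma gene lower in replicates 1 and 2 and higher in replicates 3 and 4 (exact permutation p = 0.5). That change of sign was absent over coding transcripts alone, where the ratio was 0.44 and above 0 in all libraries (exact permutation p = 0.125). On that measure Eif2s1 had 54.1, 46.8, 59.1 and 41.9 TPM and Eif2s3x 57.9, 63.9, 79.6 and 71.8 TPM.

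The share of a short Eif2s1 transcript moved with the number of read files that each library was deposited with, which is 4 for replicates 3 and 4 and 6 for replicates 1 and 2. Eif2s1-203, a processed transcript of 433 bases, held 0% of the gene in replicates 3 and 4, against 15.8% and 28.2% in replicates 1 and 2. Those TPM shares rest on few reads: 33.3 and 52 expected counts in replicates 1 and 2, beside 3083 and 2337 on the gene. The cause was not tested.

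The exchange factor eIF2B restores eIF2 to its GTP-bound form, and its 5 subunit genes had a lower median than those of eIF2. The median was 4.23 ± 0.21 on the log2(TPM + 0.1) scale, beside 6.11 ± 0.14 for the 3 genes of eIF2 and 4.09 ± 0.10 for all detected genes (SD over libraries, n = 4). Eif2b2, for the beta subunit, had 44.0, 54.8, 67.8 and 73.4 TPM and was the highest. Eif2b5, for the catalytic epsilon subunit, had 19.3, 20.6, 21.7 and 28.1 TPM. Eif2b3, for the gamma subunit, was the lowest with 6.70, 6.11, 7.43 and 7.35 TPM. Eif2s1 exceeded Eif2b5 by 1.36 ± 0.53 on the log2 scale (n = 4), in all libraries and least in replicate 4.

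By TPM, about as much of Eif2b2 was assigned to a fragmentary transcript as to coding ones, but by expected counts far less. Eif2b2-206, a retained-intron transcript of 338 bases, took 40.5%, 43.7%, 56.2% and 57.3% of the gene, and the coding transcripts alone had 25.2, 28.4, 29.5 and 30.8 TPM. On that measure its range overlapped that of Eif2b5. By expected counts Eif2b2-206 had 31.5, 36.7, 98.5 and 88.1, against 594, 593, 1095 and 988 for the coding Eif2b2-201. In the second quantification Eif2b2-206 held 39.5% of the gene on average and Eif2b2-201 54.6%. Eif2b4, for the delta subunit, had 8.35, 10.02, 13.9 and 12.1 TPM, and its lead transcript Eif2b4-201 held 32.5%, 61.0%, 30.6% and 39.7%. Eif2b1, for the alpha subunit, averaged 18.8 ± 2.8 TPM (SD, n = 4).

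Eif2a and Eif2d encode proteins that can bring tRNA to the ribosome without the 3-subunit eIF2. Eif2a had 25.8, 37.0, 43.6 and 28.0 TPM, and Eif2d had 14.0, 18.4, 18.03 and 20.0 TPM. Within Eif2a, the coding transcript Eif2a-201 led with 65.3%, 55.3%, 67.5% and 47.6%. Eif2a-207, annotated for nonsense-mediated decay (the destruction of mRNAs with an early stop codon), had 28.97%, 43.7%, 21.6% and 30.2%. It lacks a coding exon of 119 bases at chr3:58539528-58539646 (mm10, + strand), a length that is not a multiple of 3. The exon is printed here because its loss separates the decay form from the coding form, all in lower case as no single base is marked.
Eif2a exon: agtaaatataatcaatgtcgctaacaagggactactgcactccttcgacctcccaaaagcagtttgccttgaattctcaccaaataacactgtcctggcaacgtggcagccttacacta
The authors deposited 2 quantifications of each library, the second derived from the reads and the first, which is used throughout unless the second is named, from alignments. Of the TPM of transcripts that include or skip this exon, those that include it had 94.0%, 69.04%, 97.3% and 91.9% in replicates 1 to 4 by the second quantification. By the first the share was 70.7%, 55.9%, 78.1% and 69.4%. Replicate 2 had the lowest inclusion by both.

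eIF3 is the largest initiation complex and the platform that the small subunit uses to meet eIF4G. Its 12 subunit genes other than the 2 for eIF3j lay within 3.24-fold of each other, between 51.6 TPM for Eif3l and 167 TPM for Eif3h, with a median of 101 TPM. Eif3h had 144, 153, 181 and 191 TPM in replicates 1 to 4. Between those ends, in falling order of their means, lay Eif3k, Eif3c, Eif3b, Eif3e, Eif3a, Eif3d, Eif3m, Eif3f, Eif3g and Eif3i, many of whose neighbours overlapped across libraries. The summed level of the 12 was 981, 1149, 1282 and 1263 TPM, lowest in replicate 1. The lowest mean share of protein-coding transcripts among the 12 was 98.0%.

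The loosely bound subunit eIF3j stood apart from the 12. Eif3j1 had 8.24, 10.6, 13.3 and 8.92 TPM and Eif3j2 had 11.2, 11.1, 11.6 and 8.59 TPM. The ratio of Eif3j1 over Eif3j2, -0.06 ± 0.27 on the log2 scale (n = 4), changed sign between libraries in these values. It depended on the quantification: the second gave -1.10, below 0 in all libraries (exact permutation p = 0.125), against -0.06 in the first (exact permutation p = 0.75). The 2 genes are paralogs, and their sequences were not compared here. Their counts are uncertain: the deposited posterior SD reached 3.15% of the count for Eif3j1 and 6.65% for Eif3j2, while 46 members were under 1%. The second quantification gave 3.65, 4.64, 10.5 and 6.62 TPM for Eif3j1, against 8.24, 10.6, 13.3 and 8.92 TPM in the first. For Eif3j2 the second gave 13.03, 10.9, 16.6 and 11.1 TPM, against 11.2, 11.1, 11.6 and 8.59 TPM in the first. For the sum of both genes the second gave 19.3 ± 5.3 TPM and the first 20.9 ± 3.2 TPM (SD, n = 4).

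Many mRNAs of the translation apparatus begin with a C followed by a run of pyrimidines, the TOP sequence through which mTORC1 controls their translation. A start with C and then at least 4 bases that are C or T was searched on the gene's strand at the annotated RefSeq start (GRCm38.p6, any of a gene's starts). It was found in 2 of the 38 members that had an entry, 5.26%, beside 3.01% of all 27025 genes with one. The members were Eif3f and Eif2s3x, and a count of 2 is too small to set the group apart. Their 30 bases around the start are printed because they are the members with the pattern, at chr7:108934405-108934434 (+ strand) and chrX:94212632-94212661 (- strand), with the first 5 transcribed bases in capitals.
Eif3f start: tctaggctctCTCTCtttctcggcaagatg
Eif2s3x start: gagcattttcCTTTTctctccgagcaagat
Eif3f averaged 67.6 ± 10.3 TPM and Eif2s3x 68.7 ± 9.6 TPM (SD, n = 4), both near the median of the members. Other members at far higher levels, Eif4a1 and Eif5a among them, had no such bases at the starts searched.

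The helicase gene Eif4a1 was the most abundant member. It had 630, 650, 686 and 755 TPM in replicates 1 to 4 and ranked 179 among the detected genes by mean level. Its paralog Eif4a2 had 119, 153, 207 and 128 TPM, highest in replicate 3. Eif4a3, which belongs to the exon junction complex rather than to the cap complex, had 60.4, 59.7, 63.3 and 75.5 TPM. Eif4a1 over Eif4a2 was 2.19 ± 0.37 and Eif4a1 over Eif4a3 was 3.39 ± 0.06 on the log2 scale (n = 4). The second of these ratios varied least of the 19.

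In the first quantification, most of the Eif4a2 level was assigned to transcripts not annotated as protein coding. The lead transcript, Eif4a2-210, is annotated for nonsense-mediated decay and held 35.4%, 34.0%, 41.7% and 40.9% of the gene. Over coding transcripts alone Eif4a2 had 41.2, 52.4, 71.6 and 46.1 TPM, which is 34.9% ± 0.7 of its level (SD, n = 4). Eif4a1 over Eif4a2 on that measure was 3.63 on the log2 scale. In the first quantification, the coding share of Eif4a2 differed by less between libraries than that of Eif1ax (39.6% ± 9.0), Eif2b2 (48.7% ± 7.2) or Eif4ebp1 (48.2% ± 8.2). That comparison is not given for the second, where Eif4a2-210 held 35.8%, 34.9%, 35.2% and 26.5% in replicates 1 to 4.

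Eif4a2-210 lacks a coding exon of 140 bases at chr16:23109120-23109259 (mm10, + strand), which is not a multiple of 3. A different exon of 107 bases lies at chr16:23112351-23112457. It is present in Eif4a2-204 and in Eif4a2-224, which is annotated as protein coding, and carries a stop codon that begins at its base 8. The first is printed whole and the second as its first 30 bases, with that stop codon in capitals. They are printed because Eif4a2-210 lacks the first and Eif4a2-204, also annotated for decay, holds the second.
Eif4a2 skipped exon: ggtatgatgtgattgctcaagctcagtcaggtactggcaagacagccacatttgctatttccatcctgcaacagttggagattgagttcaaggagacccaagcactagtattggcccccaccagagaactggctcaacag
Eif4a2 stop exon: gagtcgaTAGcggcagttgatgacgagatg
Inclusion of the 140-base exon was 59.8%, 58.3%, 60.3% and 69.8% in the second quantification. In the first it was 52.3%, 50.6%, 49.5% and 49.1%, nearly the same in all libraries. For the stop exon, whose inclusion mixes a coding and a decay transcript and is no decay share, the second quantification had 36.7%, 28.4%, 15.1% and 18.3%. The first had 36.6%, 27.2%, 18.1% and 32.5%, and both were lowest in replicate 3, where the level of Eif4a2 was highest.

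Eif4b and Eif4h encode RNA-binding helpers of eIF4A. Eif4b had 60.3, 80.4, 94.4 and 102 TPM, and Eif4h had 119, 116, 120 and 128 TPM. Eif4b over Eif4h was -0.55 ± 0.30 on the log2 scale (n = 4), below 0 in all libraries and lowest in replicate 1. Eif4h was among the least variable members, with a coefficient of variation (CV, the SD as a percent of the mean) of 4.19%.

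Eif4h was divided between 2 coding forms. Eif4h-205 has a coding exon of 60 bases at chr5:134624441-134624500 (mm10, - strand), which Eif4h-201 skips and which keeps the reading frame. It is printed as read on the gene's strand because its presence defines the share given next.
Eif4h exon: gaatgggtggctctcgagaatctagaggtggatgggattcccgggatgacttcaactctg
Its inclusion was 40.3%, 36.4%, 41.8% and 50.8% in the second quantification. In the first it was 43.9%, 42.0%, 41.3% and 51.1%, and replicate 4 was the highest in both.

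Among the cap-binding genes, Eif4e and Eif4e2 were near each other. Eif4e, for the main cap-binding protein, had 122, 100, 96.9 and 81.7 TPM. Eif4e2, for a cap-binding protein that represses translation, had 73.3, 77.7, 89.3 and 87.8 TPM. Eif4e over Eif4e2 was 0.28 ± 0.36 on the log2 scale (n = 4), above 0 in replicates 1 to 3 and below 0 in replicate 4 (exact permutation p = 0.25). Eif4e3, an atypical member of the family, had 12.4, 15.98, 22.1 and 19.5 TPM, and Eif4e exceeded it by 2.53 ± 0.57. Eif4e1b, known from oocytes, was assigned between 3.17 and 11.4 estimated counts per library by the second quantification and listed at 0 by the first.

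Eif4e was spread over several coding transcripts. By TPM, Eif4e-205 led with 43.2%, 37.9%, 38.8% and 41.3%, followed by Eif4e-202 with 31.3%, 36.2%, 32.6% and 31.9%. Both are short, of 729 and 856 bases. The full-length Eif4e-201, of 4991 bases, had 19.4%, 21.8%, 23.6% and 23.1%. By expected counts Eif4e-201 led, with 1999, 1598, 3197 and 2201, against 444, 277, 502 and 375 for Eif4e-205 and 408, 335, 540 and 371 for Eif4e-202. In the second quantification Eif4e-202 led with 35.2% on average.

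The scaffold group was led by Eif4g2, whose protein (also called DAP5) lacks the eIF4E-binding region. Eif4g2 had 448, 422, 388 and 421 TPM. Eif4g1, the main scaffold, had 90.7, 96.9, 81.0 and 98.4 TPM. Eif4g3 had 41.9, 59.0, 53.1 and 40.4 TPM. No library overlapped between the 3 genes: Eif4g2 over Eif4g1 was 2.20 ± 0.10 and Eif4g1 over Eif4g3 was 0.93 ± 0.32 on the log2 scale (n = 4). Over coding transcripts alone Eif4g1 had 69.3, 75.0, 53.6 and 60.7 TPM and Eif4g3 had 40.3, 56.7, 51.8 and 38.6 TPM. Their ranges overlapped on that measure, and Eif4g1 over Eif4g3 was 0.47, above 0 in all libraries. Relative to its partners, Eif4a1 exceeded Eif4g1 by 2.89 ± 0.15 and Eif4e by 2.77 ± 0.35.

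Eif4g2 also has a coding exon of 114 bases, a multiple of 3, at chr7:111076280-111076393 (mm10, - strand), in Eif4g2-213 and not in Eif4g2-206. It is printed because it separates the 2 leading coding forms.
Eif4g2 exon: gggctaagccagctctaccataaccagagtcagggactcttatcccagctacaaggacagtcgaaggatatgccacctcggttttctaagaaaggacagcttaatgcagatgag
Its inclusion was 10.8%, 11.6%, 12.1% and 12.2% in the second quantification. In the first it was 16.9%, 16.4%, 15.7% and 16.7%, and its range was the narrowest of the 5 exons described in both. The exons were chosen after their values were seen, and they carry no test.

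Neither Eif4g1 nor Eif4g3 had a transcript with more than 50% of the gene on average. Eif4g1-202 held 44.4%, 50.7%, 39.4% and 36.3%, and Eif4g3-215 held 37.1%, 36.1%, 32.2% and 34.4%. In the second quantification the retained-intron transcript Eif4g1-210 had 15.97% and 16.8% in replicates 3 and 4 (4 read files each), against 0.0015% and 0.079% in replicates 1 and 2 (6 read files each). In the first it had 28.4% and 28.1% in replicates 3 and 4, against 13.5% and 15.8% in replicates 1 and 2. The pairs of libraries were apart in both.

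By gene-level TPM, the inhibitors of the cap complex were low beside their target. Eif4ebp1 had 14.7, 21.3, 18.1 and 17.8 TPM, and Eif4ebp2 had 11.5, 13.2, 15.1 and 16.2 TPM. They stood below Eif4e by 2.47 ± 0.40 and 2.83 ± 0.45 on the log2 scale (n = 4), in all libraries. Over coding transcripts alone Eif4ebp1 over Eif4e was -3.51. Both measures keep the short Eif4e transcripts, which are annotated as coding, so the size of the gap rests partly on them. The full-length Eif4e-201 alone had 23.7, 21.8, 22.9 and 18.9 TPM in replicates 1 to 4. That was above the gene levels of Eif4ebp1 and Eif4ebp2 in all libraries, but by less. Eif4ebp1 over Eif4ebp2 was 0.36 ± 0.23, above 0 in all libraries, but over coding transcripts alone it was -0.70. In the second quantification it was 0.30 and below 0 in replicate 4, with 16.09 against 16.17 TPM. The non-coding Eif4ebp1-202, a processed transcript of 798 bases, took 41.0%, 51.5%, 60.5% and 54.4% of Eif4ebp1. By expected counts it had 58.05, 91.6, 169 and 124, against 269, 277, 364 and 344 for the coding Eif4ebp1-201.

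Eif4ebp3 had 3.10, 4.67, 0.78 and 0.98 TPM, with replicates 1 and 2 above replicates 3 and 4. These rest on 26.9, 35.1, 10.8 and 11.2 expected counts, with a posterior SD of up to 76.7% of the count. The gene lies within AC115631.1 on the same strand, which had 11.4, 14.7, 20.2 and 14.6 TPM, so its reads cannot be told apart from that gene's with confidence. Eif4enif1, whose protein carries eIF4E into the nucleus and to P-bodies, had 16.5, 16.6, 16.03 and 15.1 TPM. That was the lowest CV of the detected members in the first quantification, 4.16%, while the second gave 13.7 ± 1.9 TPM (SD, n = 4). In the first, the gene's lead transcript Eif4enif1-201 held 38.2%, 45.0%, 47.0% and 43.7%.

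In the last group, Eif5a encodes the hypusine-bearing factor that helps ribosomes through difficult peptide bonds. It had 330, 363, 421 and 479 TPM, and its paralog Eif5a2 had 1.67, 2.18, 2.33 and 1.87 TPM. Eif5a over Eif5a2 was 7.56 ± 0.26 on the log2 scale (n = 4), the widest of the 19 ratios. Eif6, whose protein keeps the large subunit from joining early, averaged 56.9 ± 4.5 TPM.

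Eif5b, for the GTPase of subunit joining, had 41.9, 45.8, 77.1 and 30.5 TPM, with replicate 3 the highest and the highest CV of the detected members, 40.8%. Over coding transcripts alone it had 40.6, 42.1, 55.1 and 27.5 TPM, with replicate 3 still the highest but less far apart. The coding Eif5b-201 held 34.0%, 37.5%, 41.1% and 49.1% of the gene in the second quantification, against 96.8%, 91.9%, 71.4% and 90.05% in the first. The retained-intron transcript Eif5b-202 held 51.4%, 48.8%, 40.2% and 48.9% in the second, against 2.48%, 5.26%, 2.39% and 0.55% in the first. The quantifications did not overlap for either transcript. In replicate 3 of the first, most of what Eif5b-201 did not hold lay in other transcripts not annotated as protein coding.

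**Figure D2:**
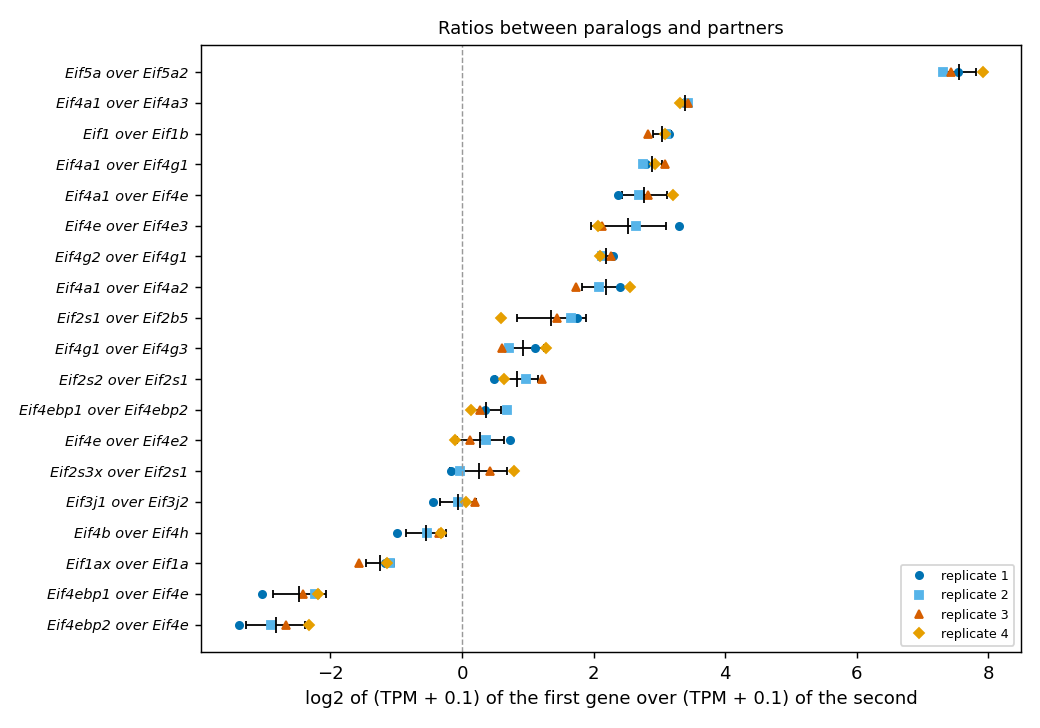
Log2 ratios of TPM + 0.1 between 19 pairs of paralogs or partners, with 1 point for each of the 4 libraries and a bar for the mean ± SD. The ratios of Eif4e over Eif4e2, Eif2s3x over Eif2s1 and Eif3j1 over Eif3j2 cross 0, and those of the other 16 pairs stay on 1 side.

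Across the detected members the annotated transcript classes were mostly coding. The median member had 98.6% of its level in protein-coding transcripts, beside 97.4% over the 9692 detected genes with a coding transcript. A lead transcript of 90% or more was found in 25 of the 48, and a lead under 50% in 7. For 4 members, 8.33%, the lead was not coding (Eif1ax, Eif2b2, Eif4a2 and Eif4ebp1), beside 5.64% of all such genes. The second quantification also had 4, with Eif5b in the place of Eif2b2, and the same lead as the first in 44 members. The transcripts with the leading non-coding shares in Eif1ax and Eif2b2 are short, and since TPM is per length, a short transcript reaches a given TPM with fewer reads.

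**Figure D3:**
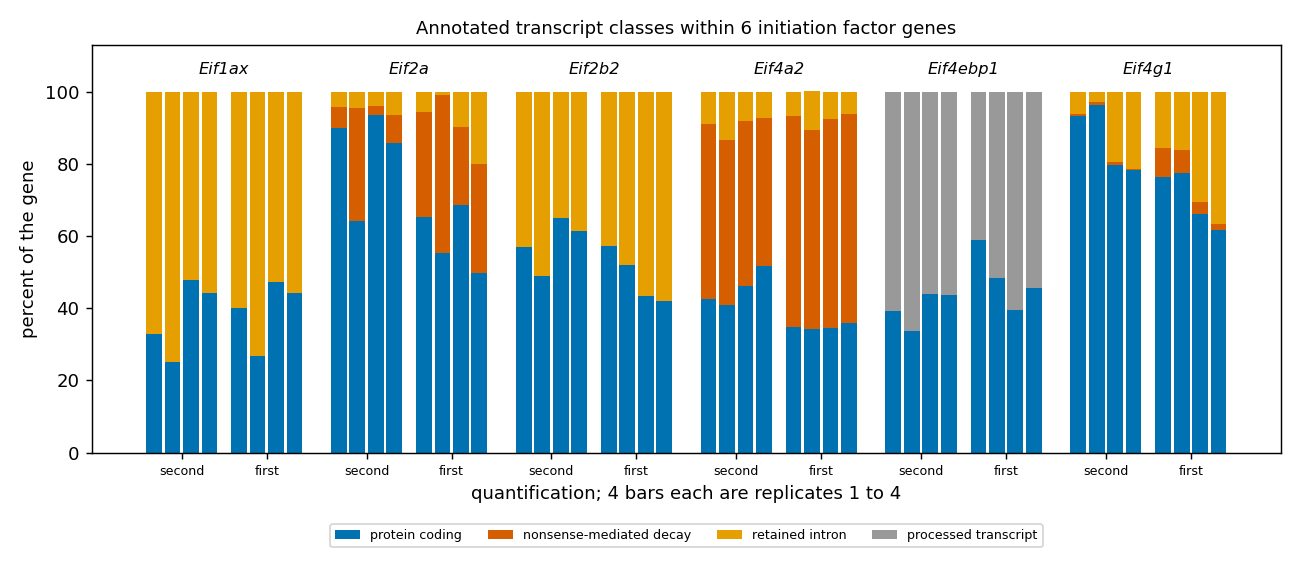
Percent of each gene's level by annotated transcript class in 6 members, for the second and the first quantification, with 1 stacked bar for each of the replicates 1 to 4. Coding transcripts make up 34.9% ± 0.7 of Eif4a2 in the first quantification, while the coding part of Eif2a is larger in the second.

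No member passed the test for variation between libraries beyond the trend for its abundance. edgeR's deviance test against the trended dispersion, with Benjamini-Hochberg adjustment over all genes tested, called 305 of 11679 genes, 2.61%, and 0 of the 48 members tested. At an unadjusted p under 0.05 stood 0 members, beside 910 genes (7.79%). With DESeq2's dispersion trend in place of edgeR's, 0 members were called as well. The median CV of the detected members was 14.7%, beside 15.2% over the 6730 detected genes with a mean of 10 TPM or more.

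The members nearest to a call were Eif2s2, Eif5b and Eif4a2. Eif2s2 had 156, 191, 210 and 103 CPM (counts after scaling to a common library size) in replicates 1 to 4, with an adjusted p of 0.671 by edgeR. Eif5b had 235, 215, 289 and 144 (edgeR adjusted p = 0.877), and Eif4a2 had 120, 139, 201 and 118 (edgeR adjusted p = 0.998). Replicate 3 was the highest for all 3 genes and replicate 4 the lowest.

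**Figure D4:**
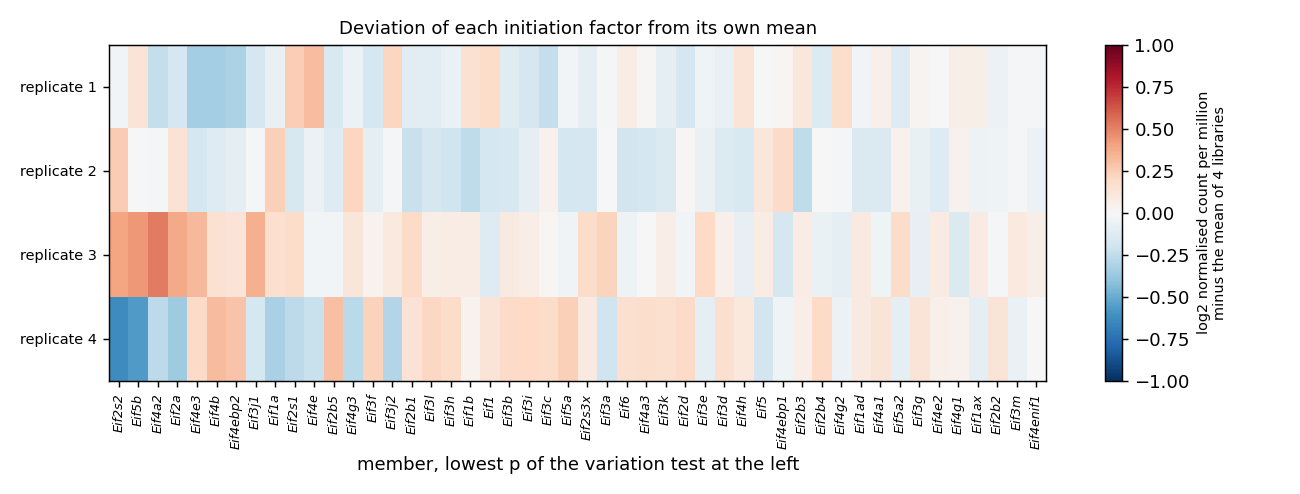
Log2 CPM minus the mean of the 4 libraries, for the 48 members tested, with the lowest p of the edgeR variation test at the left. Eif2s2, Eif5b, Eif4a2 and Eif2a are red in replicate 3 and blue in replicate 4, and colours fade to the right.

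Of 36 related genes that act on initiation or next to it, all were detected. Among them 1 was called variable, beside 2.61% of all genes tested, too few to set the group apart. That gene was Ppp1r15a (GADD34), the stress-induced subunit that directs a phosphatase to eIF2. It had 308, 465, 184 and 759 TPM, and edgeR's adjusted p was 0.0029. Replicate 4 was the highest and replicate 3 the lowest, the reverse of Eif2s2, which was not called. The call rested on those libraries: edgeR's adjusted p was 0.207 without replicate 3 and 0.539 without replicate 4, and it lay between 9.41e-05 and 0.00893 under the other alternatives. Its constitutive paralog Ppp1r15b had 61.3, 67.0, 57.2 and 59.5 TPM (edgeR adjusted p = 1). Of the eIF2 kinases, Eif2ak2 (PKR) was the highest with 94.4, 81.6, 112 and 62.3 TPM and Eif2ak3 (PERK) the lowest with 1.61, 4.09, 4.09 and 4.30 TPM, and neither was called. The elongation factor Eef1a1 stood far above all initiation factors, at 2784 ± 329 TPM (SD, n = 4).

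The read-file split is a technical feature of the records, not a condition. edgeR's quasi-likelihood test of the libraries with 4 read files over those with 6 called 0 of 11679 genes (0%) and 0 of 48 members after adjustment. At an unadjusted p under 0.05 it had 838 genes (7.18%) and 3 members (6.25%). DESeq2 called 88 genes (0.753%) and 0 members. The members' median log2 ratio was 0.11, beside 0.02 over all genes, and 35 of 48 members were above 0, beside 53.6% of all genes.

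The 3 members under 0.05 before adjustment were Eif4e3, Eif4b and Eif4ebp2. Eif4e3 had 33.2 and 30.3 CPM in replicates 3 and 4, against 20.99 and 23.4 in replicates 1 and 2, a log2 ratio of 0.52 (edgeR adjusted p = 0.644). Eif4b had 225 and 253 in replicates 3 and 4, against 161 and 186 in replicates 1 and 2, a log2 ratio of 0.46 (edgeR adjusted p = 0.679). Eif4ebp2 had 55.6 and 61.7 in replicates 3 and 4, against 40.7 and 47.5 in replicates 1 and 2, a log2 ratio of 0.41 (edgeR adjusted p = 0.679). The library pairs did not overlap in these genes, but the genes were picked by this same test, so that adds no support.

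Transcript shares moved with the split more visibly in the second quantification. Of 104 member transcripts with a mean share of 5% or more in either quantification, the second had 14 with the library pairs at least 10 percentage points apart and the first had 5. The same share over the transcripts of all genes is not given, so these counts do not set the members apart. Transcripts of the same gene divide its total, so a single shift can count more than once, as for Eif1ax-201 and Eif1ax-202. An example is Eif1-202, a processed transcript of 383 bases. The second quantification gave it 2.25% and 2.07% of Eif1 in replicates 3 and 4, against 39.9% and 31.1% in replicates 1 and 2.

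Between the quantifications of the same libraries, the members' gene levels were lower in the second, as were those of most genes. limma on the log2 difference, second minus first, with adjustment over all genes tested and a size of at least 1, called 1340 of 12300 genes (10.9%) and 0 of the 49 members tested. By adjusted p alone, 27 of the 49 members passed, all lower in the second, beside 4864 genes (39.5%). The median difference was -0.35 over the members and -0.29 over all genes, so relative to that common shift the members' median was -0.06.

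Eif3j1 had the widest difference, -0.78 ± 0.45 (SD, n = 4; limma adjusted p = 1.2e-06), and Eif2b2 the next, -0.60 ± 0.07 (limma adjusted p = 0.00047). Eif4a1 had 424, 401, 541 and 611 TPM in the second quantification, against 630, 650, 686 and 755 TPM in the first, a difference of -0.48 ± 0.19 (limma adjusted p = 0.0025). Eif1 differed by -0.09 ± 0.11 (limma adjusted p = 0.574). Eif3j2 was the member above 0, by 0.27 ± 0.23 (limma adjusted p = 0.107).

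**Figure D5:**
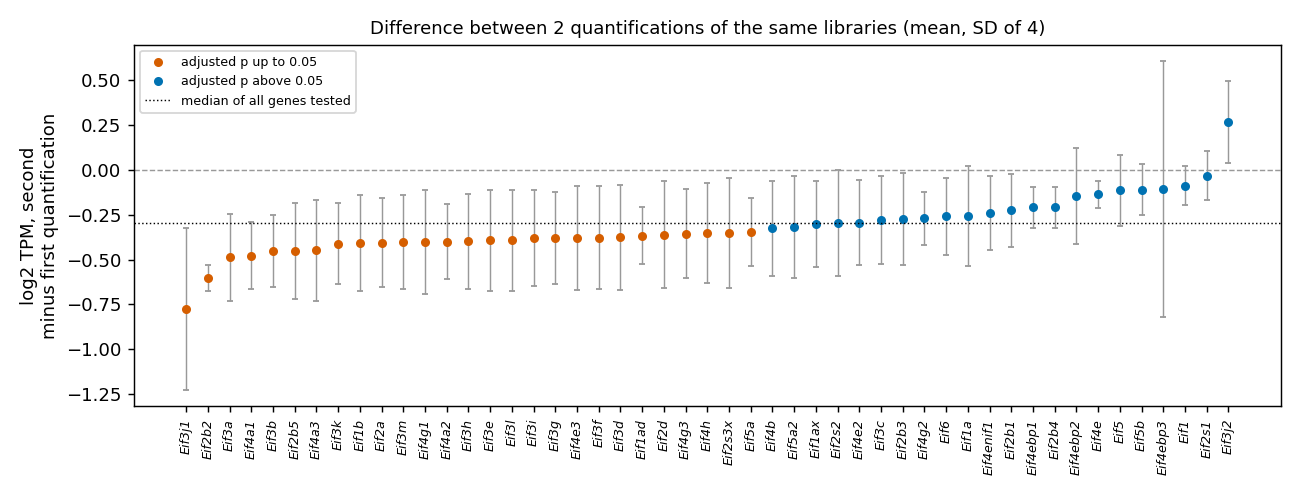
Log2 TPM in the second minus the first quantification for the 49 members tested, as the mean of 4 libraries with the SD as bars. Orange points have a limma adjusted p up to 0.05, blue points do not, and the dotted line is the median of all genes tested, -0.29. Eif3j1 is at the lower left and Eif3j2 at the upper right.

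Of the members, 12 overlap another gene with a mean of 1 TPM or more. In 9 cases it lies on the other strand, as Serp1 does for Eif2a, with 372, 372, 381 and 391 TPM. Whether counting used strand is not given in the sources used here, so reads of such pairs may not be separable.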

How the data were processed

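PolyA RNA was sequenced from 4 libraries of 1 group, starting from 1 µg RNA with fragments of 250 to 400 bases, per the labels. Per the deposited records, the authors quantified each library against GENCODE M21 on mm10 by 2 methods, the first from transcriptome alignments and the second from the reads; the programs are not given in the sources used here. The authors deposited expected counts (first) and estimated counts (second), which are not normalised, TPM values scaled to 1 sum per library, and the percent of each transcript in its gene. The posterior standard deviation of the count is a deposited value in another unit, per the file headers. Second-quantification transcripts were summed per gene.

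Members are listed by symbol and biotype from the second tables. The members, role groups, pairs, related genes and markers were chosen with earlier results of these data known, and the 5 exons after their shares were seen. Named genes were those in a listed pair, the highest and lowest of each role group, and members with a non-coding lead transcript or a lead under 50%. Others, such as those nearest to a call, were chosen after their values were seen.

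Counts were rounded and fitted over all genes with edgeR 4.0.16 (low counts removed by filterByExpr; TMM scaling; trended dispersion; 3 degrees of freedom) and DESeq2 1.42.0 under R 4.3.3, and quantifications were compared with limma 3.58.1 on log2(TPM + 0.1), all at an adjusted p of 0.05. A count of 0 allows up to 3 counts, 0.0724 to 0.129 CPM, for counting error only. Ratios, shares and plots used Python 3.11.15. Exon inclusion is the TPM of transcripts that hold an exon over that of transcripts that hold or skip it. Exon sequences come from GENCODE M21 transcripts (mm10) and start sequences from RefSeq (GRCm38.p6).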

Additional observations from a re-analysis of the deposited data

Results flagged for a closer look

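Eif1ax had 38.3 TPM in replicate 2, beside 25.0, 24.4 and 22.3 TPM in replicates 1, 3 and 4. The gap to the nearest library was 0.833 of the whole range, just over Dixon's critical value for 4 samples. Over coding transcripts alone replicate 2 had 10.3 TPM, within the range of the other libraries. Chance puts about 1 in 20 such groups over this value, and 49 members were examined.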

How the results depend on the processing

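No paired analysis was possible because the study has 1 group. Members called variable, or called for the read-file split, numbered 0 under each alternative run, and 43 to 49 members were detected. Without a filter on low values, 1 member (Eif4e1b, listed at 0 in the first quantification) was called between quantifications, with 2144 genes in all beside 1340. The number of members with a non-coding lead ranged from 2 to 4 when 1 library was left out, lowest without replicate 3.

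Of 133 alternative ratios, 130 kept the sign of their mean, which need not be the sign in each library. Eif4ebp1 over Eif4ebp2 was -0.70 over coding transcripts, Eif2s3x over Eif2s1 was -0.065 in the second quantification, and Eif3j1 over Eif3j2 ranged from -0.15 to 0.064 when 1 library was left out, above 0 without replicate 1, and was -1.10 in the second quantification, beside -0.06; the cause was not tested. Of those that kept their sign, 4 moved by over 1.5-fold: Eif3j1 over Eif3j2 as given, and, over coding transcripts, Eif4a1 over Eif4a2 to 3.63, Eif1ax over Eif1a to -2.61 and Eif4ebp1 over Eif4e to -3.51. In the second quantification 9 of 11 role medians, all lower than in the first, moved by more than their SD, and 3 of 5 exon shares did.

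Over all genes, 135 were variable without replicate 1, beside 305. The read-file split had 0 genes with edgeR, and 35 without a filter, 16 in the second quantification, 12 without replicate 2 and 88 with DESeq2. With 4 libraries no exact test can pass 0.05, and members at under 40 counts, such as Eif4ebp3, carry wide errors.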
